A study of Rattus norvegicus with 18 samples.

Results

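DNA repair genes are described here in the liver of male F344 rats, as a list of 43 genes named for their roles in repair of alkylated, excised, mismatched and broken DNA or as checkpoint kinases. Of the 43 genes, 37 were matched to a probe through a RefSeq accession and 35 passed the filter on dim probes. They stand among 15645 genes matched and 10914 tested. No probe was assigned to Lig3, Ercc4, Ercc5, Msh6, Prkdc or Atr, which are not analysed here. Neil3 and Brca1 were on the array but were not well above background in all 3 rats of any group. Of the 35, 31 were well above background in every rat, and Fancd2 passed only through the CCl4 groups in which it was high.

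Total RNA of whole liver from 18 rats was hybridised to one-colour arrays, 1 rat per array and 3 rats in each of 6 groups. The rats were males of the F344/NSlc strain, bought at 5 weeks of age. The 3 treatments were none (basal diet), N-nitrosodiethylamine (DEN) at 4 mg/kg in saline, and carbon tetrachloride (CCl4) at 100 mg/kg in corn oil. Both compounds were given daily by gavage in 5 mL/kg, and rats were sampled at day 28 or day 84. The labels call the controls vehicle in their titles but untreated and fed a basal diet in the protocol, so gavage and solvent cannot be told apart from the compounds. DEN is activated in the liver to an agent that ethylates DNA, whereas CCl4 is activated to radicals that injure membranes and kill hepatocytes. The study's title concerns genes specific to non-genotoxic liver carcinogens, a class that CCl4 is commonly placed in. P-values judge differences between group means against the spread between rats within groups, estimated over all 6 groups.

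DNA repair is divided by the lesion it removes. Direct reversal takes an alkyl group off a base, base excision removes a small damaged base, and nucleotide excision cuts out a stretch of strand around a bulky lesion. Broken strands are rejoined by end joining or copied from a sister chromatid by homologous recombination, which works in dividing cells, and checkpoint kinases hold the cell cycle meanwhile. Most hepatocytes of an adult liver are not dividing.

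Promoters are shown for 5 genes on which the results turn: Mgmt, Xpc, Brca2, Chek1 and Fancd2. RefSeq promoters of the GRCr8 assembly were found for 36 of the 43 genes, each running from 250 bases before to 50 bases after a start, and Ddb2 is not shown. Mgmt lies at chr1:201140582-201140881 on the plus strand, Brca2 at chr12:4895197-4895496 on the plus strand and Xpc at chr4:125578035-125578334 on the minus strand. Chek1 lies at chr8:44629794-44630093 on the minus strand and Fancd2 at chr4:148234458-148234757 on the plus strand. Capitals mark the E2F motif TTCCCGC on either strand in Chek1 and Fancd2 and the CHR motif TTTGAA on either strand in Xpc, and sequences without a match have no capitals.
Mgmt: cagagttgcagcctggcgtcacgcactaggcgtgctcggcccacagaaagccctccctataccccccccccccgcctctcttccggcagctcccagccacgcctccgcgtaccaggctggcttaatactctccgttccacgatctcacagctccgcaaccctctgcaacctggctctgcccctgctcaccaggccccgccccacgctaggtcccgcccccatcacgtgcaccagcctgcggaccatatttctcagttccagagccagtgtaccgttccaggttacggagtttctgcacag
Brca2: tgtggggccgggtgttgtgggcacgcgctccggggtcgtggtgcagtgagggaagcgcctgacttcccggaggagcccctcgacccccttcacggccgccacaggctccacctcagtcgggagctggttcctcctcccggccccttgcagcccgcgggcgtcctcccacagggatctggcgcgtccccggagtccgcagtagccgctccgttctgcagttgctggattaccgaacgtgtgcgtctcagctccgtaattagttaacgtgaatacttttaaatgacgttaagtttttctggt
Xpc: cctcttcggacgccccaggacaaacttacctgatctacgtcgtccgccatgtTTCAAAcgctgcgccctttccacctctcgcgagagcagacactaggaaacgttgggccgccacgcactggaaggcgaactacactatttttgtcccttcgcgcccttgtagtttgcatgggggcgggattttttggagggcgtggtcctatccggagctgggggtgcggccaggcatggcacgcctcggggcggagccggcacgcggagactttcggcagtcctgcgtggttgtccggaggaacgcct
Chek1: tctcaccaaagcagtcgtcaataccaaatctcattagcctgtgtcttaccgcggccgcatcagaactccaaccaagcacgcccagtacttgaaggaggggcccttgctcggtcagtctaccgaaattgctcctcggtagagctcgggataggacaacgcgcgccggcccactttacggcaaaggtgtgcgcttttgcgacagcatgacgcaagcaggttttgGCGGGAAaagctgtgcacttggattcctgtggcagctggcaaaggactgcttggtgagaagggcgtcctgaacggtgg
Fancd2: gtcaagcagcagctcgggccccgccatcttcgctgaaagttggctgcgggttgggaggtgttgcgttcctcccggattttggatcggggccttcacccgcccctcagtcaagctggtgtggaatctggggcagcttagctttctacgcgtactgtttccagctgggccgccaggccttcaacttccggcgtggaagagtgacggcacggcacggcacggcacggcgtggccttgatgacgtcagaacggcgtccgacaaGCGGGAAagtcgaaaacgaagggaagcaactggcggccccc
E2F factors and the CHR element are known for control of cell cycle genes. The E2F motif was in 7 of 40 promoters of the list (17.5%), those of Atm, Brca1, Chek1, Ercc4, Fancd2, Msh6 and Rad50, and in 4.21% of all 33469 promoters. The CHR motif was in 7.5% against 18.3%, the CCAAT box in 45% against 37.5%, and the p53 half-site of 10 bases in 7.5% against 7.98%. The motifs were searched on both strands and do not contain one another. These are matches of letters, and Ercc4 and Pms2 have several promoters among the 40.

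Levels are log2 processed signals minus the 75th percentile of the array, so 0 stands for that percentile, and each gene is read by 1 probe. The 75th percentile itself was brighter in treated livers. Scaled to the spike-in probes instead, all genes moved up by 0.41 (DEN) and 0.80 (CCl4) on the log2 scale at day 28 and by 0.70 (DEN) and 0.55 (CCl4) at day 84. Every fall below is therefore a fall relative to the 75th percentile of the same array. A gene was called at an adjusted p under 0.05 (limma, Benjamini-Hochberg over the 10914 genes). Probes well above background made up 47.18% to 57.03% of an array, and correlations between arrays of a group were 0.976 to 0.996. Markers of liver fitted the label, with all 15 hepatocyte markers past the filter.

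Few repair genes changed with DEN by day 28, and more did with CCl4 and at day 84. With DEN at day 28, 4 of 35 genes rose and 1 fell, where 7.82% of all genes tested rose and 7.19% fell. With CCl4 at day 28, 13 rose and 6 fell, against 26.1% and 33.6% of all genes. At day 84, 11 rose and 7 fell with DEN, against 21.6% and 31.1%. With CCl4 at day 84, 9 rose and 12 fell, against 28.0% and 36.3%. The median log2 fold change of the 35 genes was 0.03, 0.12, 0.04 and -0.04 in these comparisons, in this order, and that of all genes was -0.04, -0.06, -0.08 and -0.10. The shares called in either direction, 14.3%, 54.3%, 51.4% and 60.0%, lay near the sums of those background shares. These totals by themselves therefore set repair genes apart from no other genes. Taken apart, the directions lay less near with CCl4 at day 28, where 13 of 35 rose against 26.1% and 6 fell against 33.6%. That split was not tested. Both treatments were compared with the same 3 controls at each day, and without DEN replicate 2 the count with DEN at day 84 was 8 higher and 2 lower. On the spike-in scale, 16, 30, 29 and 19 of the 35 genes rose and 0 fell by limma (the same 4 comparisons). Of all 10914 genes, 3631, 8613, 7785 and 6601 were called on that scale in either direction. By limma on the main scale, Brca2 and Xpc were called in all 4 comparisons, and Atm, Ercc6, Mre11 and Polb in none.

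**Figure D1:**
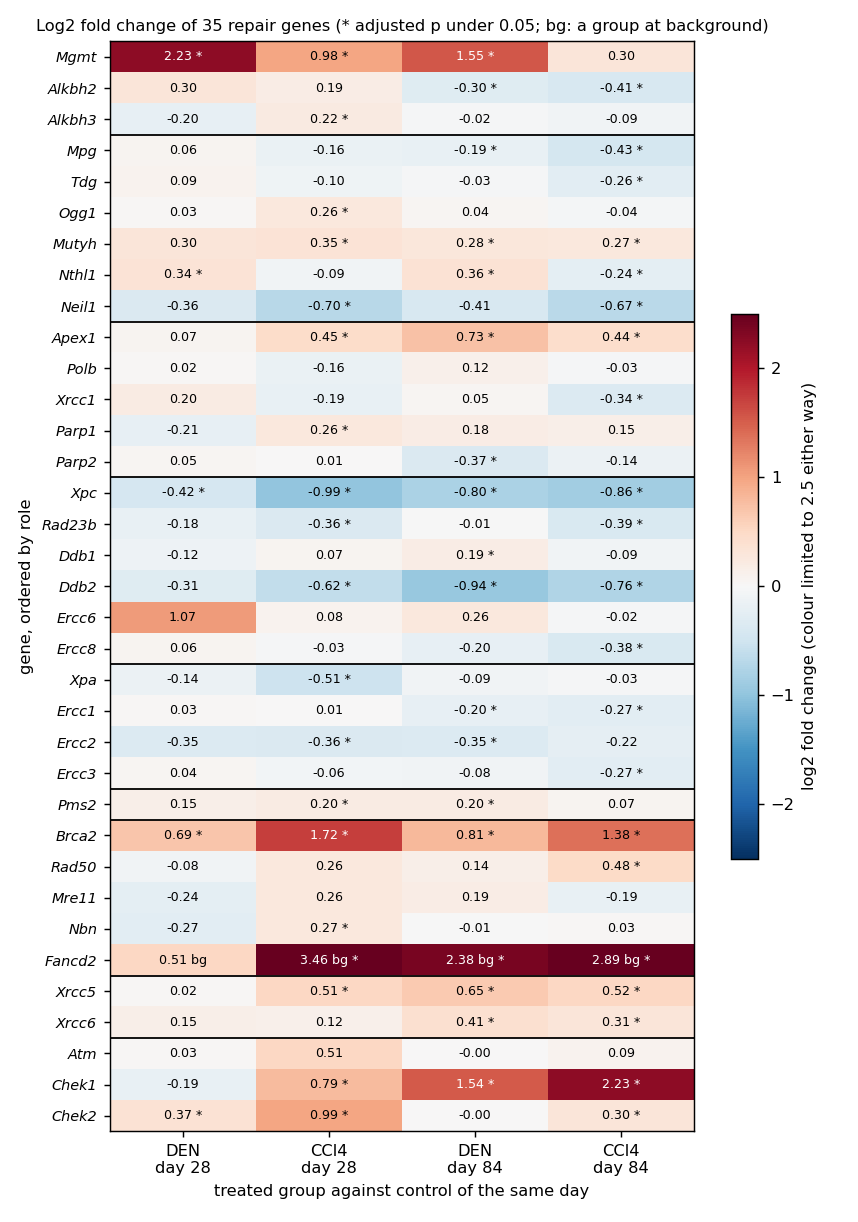
Log2 fold change of the 35 repair genes (rows, ordered by role, lines between roles) in each treated group against the controls of its day, with an asterisk where the adjusted p is under 0.05 and bg where a group had no array well above background (Fancd2), so that the value is no measured size. Xpc is lower and Brca2 higher in all 4 columns, and Mgmt has its highest value, 2.23, with DEN at day 28.

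Of the genes of direct reversal, Mgmt rose most, and more with DEN than with CCl4. Mgmt encodes the methyltransferase that takes alkyl groups off guanine onto itself, and each protein molecule acts once. In the day 28 controls its level was 3.86, 3.94 and 3.69, in DEN rats 6.20, 5.90 and 6.06, and in CCl4 rats 4.86, 4.59 and 4.97. The 3 groups did not overlap, with DEN highest. At day 84 the controls were at 3.92, 4.08 and 3.92, DEN rats at 5.59, 5.23 and 5.74, and CCl4 rats at 4.36, 4.25 and 4.20. The groups again did not overlap, and CCl4 lay close above the controls.

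With DEN, Mgmt was higher by 2.23 ± 0.13 (log2, SE, n = 3 per group) at day 28, or 4.68-fold (limma, adjusted p = 8.16e-08), and by 1.55 ± 0.13, or 2.92-fold, at day 84 (limma, adjusted p = 1.13e-06). With CCl4 it was higher by 0.98 ± 0.13 at day 28 (limma, adjusted p = 2.98e-05), and its difference of 0.30 at day 84 was not called (limma, adjusted p = 0.0625). That last difference was called with quantile normalization (0.55), normexp background correction (0.42) and spike-in scaling (0.85). CCl4 rats were lower than DEN rats by 1.25 on the log2 scale at both days (limma, adjusted p = 1.06e-05 and 1.63e-05). The difference from controls was smaller at day 84 than at day 28 by 0.68 for each compound (limma, adjusted p = 0.0257 for DEN and 0.0456 for CCl4). These calls between days were lost in 5 (DEN, -0.79 to -0.53) and 11 (CCl4, -0.79 to -0.60) of the 12 fits without 1 rat.

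Alkbh2 and Alkbh3 encode dioxygenases that oxidise alkyl groups off bases. Alkbh2 was the only one of the 3 reversal genes called between control days. Its values, given because the controls moved and so chosen after they were seen, were 2.47, 2.41 and 2.27 in day 28 controls and 3.08, 2.97 and 3.21 in day 84 controls. The control groups did not overlap and differed by 0.71 (limma, adjusted p = 0.000734). DEN rats had group means of 2.68 and 2.79 at day 28 and day 84, and CCl4 rats 2.57 and 2.68, so treated means lay between those of both control groups. Against controls it was called lower at day 84, by -0.30 with DEN and -0.41 with CCl4, and the DEN call was lost without DEN replicate 1 or 2 or control replicate 3 (-0.36 to -0.23 over the 6 fits). All day 28 controls shared 1 slide and all day 84 controls another, so day and slide cannot be told apart for the controls. Alkbh3 rose by 0.22 with CCl4 at day 28, a call lost in 4 of 6 fits without 1 rat (0.15 to 0.27).

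**Figure D2:**
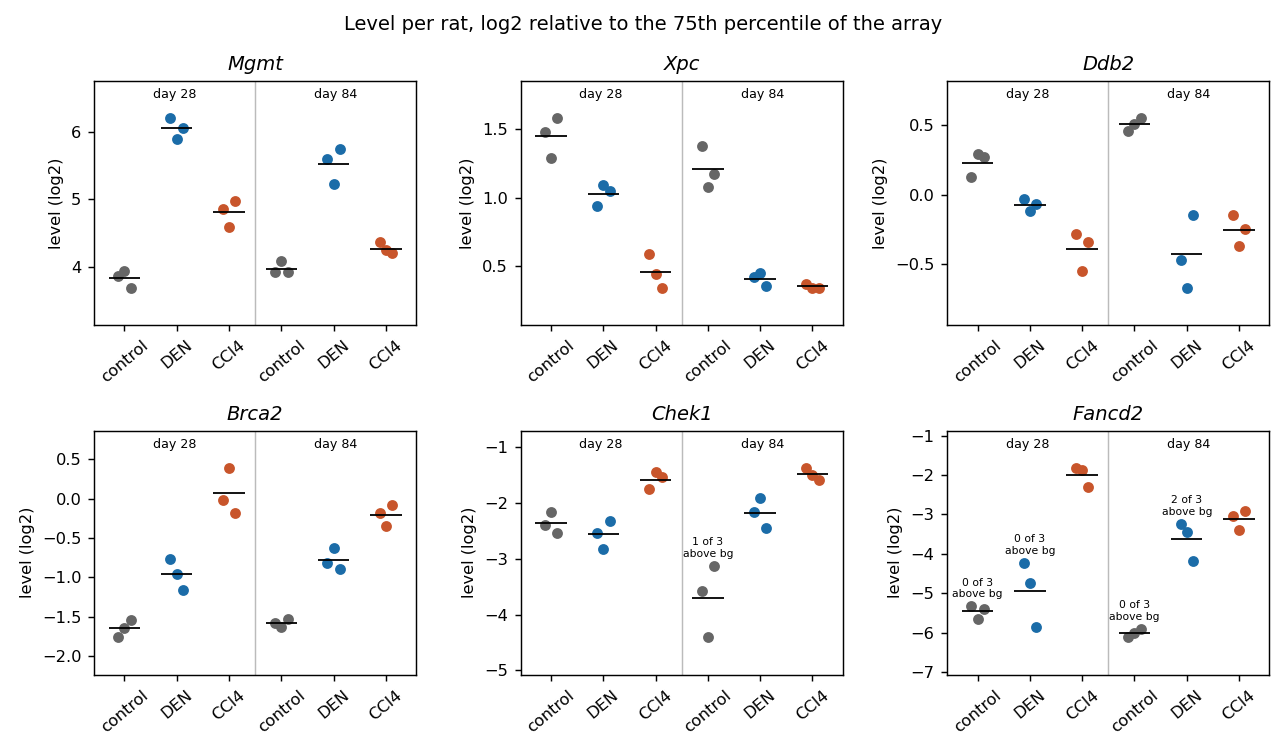
Level of 6 repair genes in each rat (log2, relative to the 75th percentile of the array), with points for the 3 rats of a group, a bar for their mean, and day 28 left and day 84 right of the line. Text marks groups in which fewer than 3 arrays were well above background (bg): Mgmt is highest with DEN, Xpc and Ddb2 are lower in treated rats, and Fancd2 is above background in all 3 rats only with CCl4.

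The glycosylases of base excision, which cut damaged bases off the sugar, changed in different directions. With DEN 1 of 6 tested was higher at day 28 and 2 were higher and 1 lower at day 84. With CCl4, 2 were higher and 1 lower at day 28, and 1 was higher and 4 were lower at day 84. These counts stand beside 26.1% higher and 33.6% lower (day 28) and 28.0% higher and 36.3% lower (day 84) among all genes with CCl4. With DEN the shares were 7.82% higher and 7.19% lower at day 28, and 21.6% and 31.1% at day 84. Nthl1, which removes oxidised pyrimidines, was, of the 35 genes, the only one called higher in some of the 4 comparisons and lower in others. Its levels, shown for that reason and so chosen after they were seen, were 1.97, 1.82 and 1.73 in day 28 controls, 2.28, 2.16 and 2.10 with DEN and 1.82, 1.68 and 1.75 with CCl4. At day 84 they were 1.75, 1.74 and 1.75 in controls, 2.10, 2.17 and 2.05 with DEN and 1.45, 1.57 and 1.52 with CCl4. DEN rats lay above the controls at both days, and CCl4 rats lay below them at day 84 and overlapped them at day 28. Nthl1 rose with DEN by 0.34 and 0.36 and fell with CCl4 at day 84 by 0.24. On the spike-in scale the CCl4 difference at day 84 was instead 0.32, a higher level. CCl4 rats were lower than DEN rats by 0.43 at day 28 and by 0.60 at day 84 on the log2 scale (limma, adjusted p = 0.000333 and 4.32e-05).

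Neil1, a glycosylase for oxidised bases, was lower with CCl4 by 0.70 at day 28 and 0.67 at day 84 on the log2 scale. The call at day 84 was lost without CCl4 replicate 1 or control replicate 3 (-0.78 to -0.52 over the 6 fits). Its DEN differences of -0.36 and -0.41 were not called. Mpg, the glycosylase for alkylated purines, was lower by 0.19 with DEN and by 0.43 with CCl4 at day 84, and the DEN call was lost in 5 of 6 fits without 1 rat. Mutyh, which removes adenine paired with oxidised guanine, rose by 0.35 with CCl4 at day 28 and at day 84 by 0.28 with DEN and by 0.27 with CCl4. Each of these Mutyh calls was lost in 2 to 4 of the 6 fits without 1 rat. The other Mutyh probe gave 0.52 with CCl4 at day 28, and 0.01 with DEN and 0.23 with CCl4 at day 84. Ogg1, which removes oxidised guanine, rose by 0.26 with CCl4 at day 28, a call lost without CCl4 replicate 2. Tdg, which removes thymine from mismatches, was lower by 0.26 with CCl4 at day 84, a call lost without CCl4 replicate 1 or 2 or control replicate 3. Neil3 was at background, with 1 CCl4 array at day 28 well above it.

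Of the genes that complete base excision, Apex1 changed most. Apex1 encodes the endonuclease that cuts the strand at a site left without a base. It was higher by 0.45 with CCl4 at day 28, and at day 84 by 0.73 with DEN and by 0.44 with CCl4. The CCl4 calls were lost without CCl4 replicate 2 or control replicate 3 at day 28 and without control replicate 2 at day 84. The DEN difference of 0.07 at day 28 was not called, and the difference between days, 0.65, was (limma, adjusted p = 0.0425), though not in 9 of the 12 fits without 1 rat (0.50 to 0.79). Xrcc1, a scaffold protein, fell with CCl4 at day 84 by 0.34 and was lower with CCl4 than with DEN by 0.39 at both days. Parp1, which marks breaks with ADP-ribose, rose with CCl4 at day 28 by 0.26, and this call was lost in 4 of 6 fits without 1 rat. Parp2, its relative, fell with DEN at day 84 by 0.37, a call lost in each of the 6 fits without 1 rat. The other Parp2 probe gave -0.09 there. Polb, the polymerase that fills the gap, was within 0.16 of the controls in each comparison and not called.

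Genes that recognise bulky lesions for nucleotide excision fell or were not called, apart from Ddb1. Of 6 genes tested, 1 (DEN) and 3 (CCl4) fell at day 28, and 2 (DEN) and 4 (CCl4) at day 84. Among all genes, 7.19% and 33.6% fell at day 28 and 31.1% and 36.3% at day 84 (DEN, then CCl4), so the counts are read as a description of these 6 genes. Xpc encodes the sensor that opens repair of bulky lesions anywhere in the genome. Its level was 1.48, 1.29 and 1.58 in day 28 controls, 0.94, 1.09 and 1.05 with DEN and 0.59, 0.44 and 0.34 with CCl4. The 3 groups did not overlap, with CCl4 lowest. By day 84 its level was 1.38, 1.08 and 1.17 in controls, 0.42, 0.45 and 0.35 with DEN and 0.37, 0.34 and 0.34 with CCl4. Both treated groups lay below the controls and overlapped each other.

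Xpc fell by 0.42 ± 0.092 with DEN and by 0.99 ± 0.092 with CCl4 at day 28 (log2, SE, n = 3 per group; limma, adjusted p = 0.00847 and 1.39e-06). It fell by 0.80 with DEN and by 0.86 with CCl4 at day 84 (limma, adjusted p = 1.34e-05 and 3.42e-06). CCl4 rats were below DEN rats by 0.57 at day 28 (limma, adjusted p = 0.000253), and the difference of -0.06 at day 84 was not called. On the spike-in scale the 4 differences were -0.02, -0.19, -0.10 and -0.31, and none was called.

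Ddb2 encodes the damage-binding protein that hands lesions to Xpc. It was at 0.13, 0.29 and 0.27 in day 28 controls, at -0.03, -0.12 and -0.07 with DEN and at -0.28, -0.55 and -0.34 with CCl4. The day 84 levels were 0.46, 0.51 and 0.55 in controls, -0.47, -0.67 and -0.15 with DEN and -0.15, -0.37 and -0.25 with CCl4. All treated rats lay below the controls of their day. The difference with DEN at day 28 was -0.31 and was not called (limma, adjusted p = 0.0802), and Ddb2 fell by 0.62 with CCl4 at that day (limma, adjusted p = 0.000336). At day 84 Ddb2 fell by 0.94 with DEN and by 0.76 with CCl4 (limma, adjusted p = 2.15e-05 and 5.35e-05). The DEN difference was larger at day 84, by -0.63 (limma, adjusted p = 0.0186). After spike-in scaling the 4 differences were 0.10, 0.18, -0.23 and -0.21, and none was called. In human cells Xpc and Ddb2 are known as targets of p53, and other p53 targets are given further on.

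Rad23b, the partner that steadies Xpc, was lower by 0.36 and 0.39 with CCl4 at day 28 and day 84. Quantile normalization ended both calls (-0.13 at each day), and on the spike-in scale the differences were 0.44, called, and 0.16, not called. Ddb1, the partner of Ddb2 in a ubiquitin ligase, rose by 0.19 with DEN at day 84, a call lost in 4 of 6 fits without 1 rat. Ercc8, which acts where a polymerase has stalled at a lesion, fell by 0.38 with CCl4 at day 84 by 1 probe, whereas its other probe gave 0.00. Ercc6, its partner, was at -0.19 in DEN replicate 3 at day 28 and between -3.32 and -2.49 in the 17 other arrays. That single array carried its difference of 1.07 ± 0.50 with DEN at day 28, which was not called, and the other probe gave 0.09. At day 84 the other Ercc6 probe gave -0.43 with DEN and -1.25 with CCl4, where the main probe gave 0.26 and -0.02.

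Of the genes that open and cut the strand, none of the 4 tested was called higher in any of the 4 comparisons on the main scale. Quantile normalization gave Ercc3 a rise of 0.15 with CCl4 at day 28, and spike-in scaling turned others upward. Xpa, which verifies the lesion, fell by 0.51 with CCl4 at day 28 and its difference was -0.03 at day 84. The difference between days was 0.48 (limma, adjusted p = 0.0405), a call lost in 7 of the 12 fits without 1 rat (0.38 to 0.55). Ercc1, the partner of an incision nuclease, fell by 0.20 with DEN at day 84 and by 0.27 with CCl4. Ercc2 and Ercc3 are helicases of the complex that unwinds the strand. Ercc2 fell by 0.36 with CCl4 at day 28 and by 0.35 with DEN at day 84, and Ercc3 by 0.27 with CCl4 at day 84, which quantile normalization reduced to -0.05, not called. The DEN calls of Ercc1 and Ercc2 and the CCl4 call of Ercc2 were each lost in 4 or 5 of 6 fits without 1 rat. Pms2, the tested gene of mismatch repair, rose by 0.20 with CCl4 at day 28 and by 0.20 with DEN at day 84, calls lost in 3 and 4 of 6 such fits. Its other probe gave 0.14 and 0.02 in these 2 comparisons.

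Genes of homologous recombination and crosslink repair were not called lower in any of the 4 comparisons on the main scale, and Brca2 rose in all 4. Brca2 is a tumour suppressor needed for homologous recombination. It was at -1.76, -1.64 and -1.54 in day 28 controls, at -0.76, -0.95 and -1.16 with DEN and at -0.01, 0.39 and -0.18 with CCl4. At day 84 it was at -1.58, -1.63 and -1.53 in controls, at -0.82, -0.62 and -0.89 with DEN and at -0.18, -0.35 and -0.08 with CCl4. The 3 groups of each day did not overlap, with CCl4 highest. Brca2 rose by 0.69 ± 0.14 with DEN and by 1.72 ± 0.14 with CCl4 at day 28 (log2, SE, n = 3 per group; limma, adjusted p = 0.00499 and 4.17e-07). At day 84 it rose by 0.81 with DEN and by 1.38 with CCl4 (limma, adjusted p = 0.000314 and 2.03e-06). Its other probe gave -0.05 and 0.05 with DEN and 1.22 and 0.69 with CCl4 at day 28 and day 84. With both probes averaged the DEN differences, 0.32 and 0.43, were not called, whereas those with CCl4, 1.47 and 1.03, were.

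Fancd2 encodes the protein that is ubiquitinated at a crosslink to start its repair. Its probe was well above background on 0 of 6 control arrays and 0 of 3 DEN arrays at day 28. It was at -5.33, -5.66 and -5.39 in day 28 controls, at -4.23, -4.75 and -5.86 with DEN and at -1.82, -1.86 and -2.31 with CCl4. At day 84 it was at -6.12, -6.00 and -5.90 in controls, at -3.24, -3.44 and -4.19 with DEN and at -3.04, -3.40 and -2.92 with CCl4. CCl4 rats were the only group well above background in all 3 rats at each day, and 2 of 3 DEN rats were at day 84. Because the controls were at background, the rise was taken against the lowest signal that counts as above background on each array. Against that signal Fancd2 was 3.03-fold higher with CCl4 at day 28 and 1.56-fold higher with CCl4 at day 84. With DEN at day 84 it was 1.10-fold higher, from a mean over 3 rats of which 2 were well above background. These are not strict bounds, because a brighter probe can also miss the background test. Brca1 was at -3.33 in DEN replicate 2 of day 28, where 0 of 3 arrays were well above background. Fancd2 entered the fit only through the CCl4 groups, so no p is given for it, although it is among the genes called in these 3 comparisons. With normexp background correction, which lifts dim signals, the differences at day 84 were 0.17 with CCl4 and 0.01 with DEN and were not called.

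Rad50, Mre11 and Nbn form the complex that binds broken ends. Rad50 rose by 0.48 with CCl4 at day 84, a call lost with quantile normalization (0.35) and with normexp (0.01). With normexp background correction it was called lower with CCl4 at day 28 (-0.19) and with DEN at day 84 (-0.20). Nbn rose by 0.27 with CCl4 at day 28, a call lost without CCl4 replicate 3 or control replicate 3. With DEN at day 28 its mean was 0.37 against 0.64 in controls. All 3 of these DEN rats lay below the controls, but the difference was not called. Mre11 was not called against controls, but it was higher with CCl4 than with DEN by 0.50 at day 28 and lower by 0.38 at day 84, where the call was lost in 3 of 6 fits without 1 rat. Brca1 was well above background on 1 CCl4 array at day 28 and on 2 at day 84, and on no other array, so no fold against controls is given.

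Xrcc5 and Xrcc6 encode the Ku proteins that hold broken ends for joining. Xrcc5 rose by 0.51 at day 28 with CCl4, and at day 84 by 0.65 with DEN and by 0.52 with CCl4 (limma, adjusted p = 0.000788, 0.000187 and 0.000582). The other Xrcc5 probe gave 0.73, 0.78 and 0.17 in these comparisons. Its difference with DEN at day 28 was 0.02, and the DEN difference was larger at day 84 by 0.63 (limma, adjusted p = 0.0124). Xrcc6 rose by 0.41 with DEN and 0.31 with CCl4 at day 84. No call of either gene was lost without 1 rat.

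Among the checkpoint kinases, Chek1 and Chek2 were each called higher in 3 of the 4 comparisons and Atm was not called. The other Atm probe gave 0.69 and 0.30 with DEN and 0.29 and 0.83 with CCl4 at day 28 and day 84. Chek1 holds cells in which replication has stalled. It was at -2.40, -2.16 and -2.53 in day 28 controls, at -2.53, -2.82 and -2.32 with DEN and at -1.74, -1.45 and -1.54 with CCl4. At day 84 it was at -3.58, -4.41 and -3.13 in controls, at -2.16, -1.90 and -2.45 with DEN and at -1.37, -1.50 and -1.58 with CCl4. CCl4 rats lay above controls at both days, and DEN rats did at day 84. The CCl4 means were -1.58 and -1.48 at day 28 and day 84, whereas the control means were -2.37 and -3.71, with 1 of 3 day 84 controls well above background.

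The rise of Chek1 was 0.79 ± 0.25 with CCl4 at day 28 (log2, SE, n = 3 per group; limma, adjusted p = 0.0134). Its difference with DEN at day 28 was -0.19 and was not called. At day 84 the fit gave 1.54 with DEN and 2.23 with CCl4 (limma, adjusted p = 0.000195 and 4.84e-06), sizes that rest on controls of which 2 of 3 were not well above background. The difference was larger at day 84 by 1.73 for DEN (limma, adjusted p = 0.00620) and by 1.44 for CCl4 (limma, adjusted p = 0.0287), the latter lost in 4 of the 12 fits without 1 rat (1.09 to 1.72). The controls were lower at day 84 than at day 28 by 1.34 on the log2 scale (limma, adjusted p = 0.00416), with day and slide again not separable. With normexp background correction the rises with CCl4 at day 28 (0.16) and DEN at day 84 (0.19) were not called, and that with CCl4 at day 84 was 0.47 and called. Chek2, which acts after breaks, rose by 0.99 with CCl4 at day 28. It also rose by 0.37 with DEN at day 28 and by 0.30 with CCl4 at day 84, calls lost in 4 and 5 of the 6 fits without 1 rat. The CCl4 difference of Chek2 was smaller at day 84 by 0.70 (limma, adjusted p = 0.0265), a call lost in 5 of the 12 fits without 1 rat. At day 84 the Chek2 mean was -1.60 in both controls and DEN rats, and no difference was called. The other Chek2 probe gave 1.38 and 0.96 with CCl4 and 0.17 and 0.48 with DEN at day 28 and day 84.

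Compared with each other, the compounds differed in more repair genes at day 28 than at day 84. The same held for all genes, with 4918 and 3743 of 10914 called, so this order is not particular to repair genes. CCl4 rats were higher than DEN rats in 11 genes and lower in 8 at day 28, against 20.4% and 24.7% of all genes, and higher in 2 and lower in 8 at day 84, against 18.5% and 15.8%. Mgmt, Nthl1, Xrcc1, Mpg and Rad23b were lower with CCl4 at both days, and Brca2 and Chek1 were higher at both. Of these, the calls of Mgmt, Nthl1, Xrcc1 and Brca2 held at both days in each fit without 1 rat. Those of Mpg were lost in 2 and 3 of 6 such fits, that of Rad23b at day 28 in 5 and that of Chek1 at day 84 in 5 (0.54 to 0.82). Against the lowest signal that counts as above background, Fancd2 was 3.32-fold higher with CCl4 at day 28, where the DEN rats were at background. Its difference of 0.51 on the log2 scale at day 84 was not called. With spike-in scaling 16 genes were higher and 1 lower at day 28, and by limma 0 were higher and 5 lower at day 84. Of all 10914 genes, 5041 and 2547 were called on that scale in either direction.

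**Figure D3:**
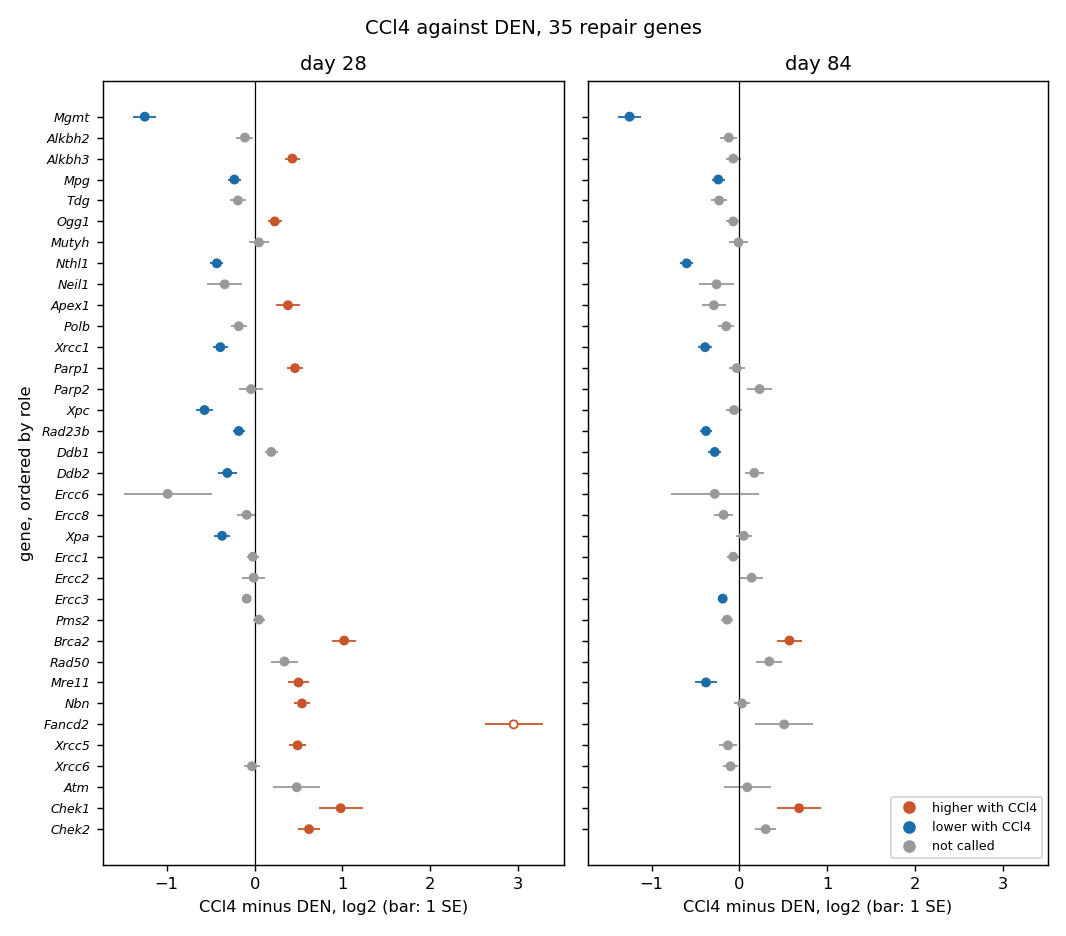
Difference between CCl4 and DEN rats (log2, 3 rats per group) for the 35 repair genes at day 28 and day 84, with bars of 1 SE. Mgmt lies at -1.25 at both days, and the open circle marks Fancd2 at day 28, a fitted value against DEN rats at background that is no measured size.

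Between days, the DEN difference from controls changed in 7 genes, 4 upward and 3 downward, where 7.64% and 8.41% of all genes did. Fancd2 is among the 4, with 3 of its 4 groups at background. The CCl4 difference changed in 5 genes, 2 upward and 3 downward, where 3.51% and 2.52% did. The controls themselves differed between days in 4 genes, with 3 higher at day 84 and 1 lower, where 4.44% and 5.32% did. Without 1 rat the CCl4 count was 1 to 3 in 9 of 12 fits, with 1 gene left without CCl4 replicate 1 of day 84, and the control count was 2 to 3. The higher ones were Alkbh2, Mpg and Chek2 and the lower one Chek1, and the calls of Mpg and Chek2 were lost in 4 and 5 of 6 fits without 1 rat. Each difference between days uses the controls of both days.

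Repair genes outside the list were read by a second list of 93 genes, of which 65 were tested. Of these, 8 rose and 4 fell with DEN at day 28, and 27 rose and 13 fell with CCl4. At day 84, 19 rose and 12 fell with DEN, and 23 rose and 19 fell with CCl4. Among all genes at day 28, 7.82% rose and 7.19% fell with DEN, and 26.1% and 33.6% with CCl4. The day 84 shares were 21.6% and 31.1% with DEN, and 28.0% and 36.3% with CCl4. Nhej1, an end-joining factor that acts with the Ku proteins, was at -1.69, -1.81 and -1.41 in day 28 controls and at 2.94, 2.41 and 2.66 with DEN. It rose by 4.31 ± 0.22 with DEN at day 28, or 19.8-fold, and by 2.30 at day 84 (limma, adjusted p = 3.55e-08 and 3.26e-06). Ube2t, the enzyme that ubiquitinates Fancd2, rose by 4.16 and Fancb, a subunit of the ligase it works with, by 2.48 with CCl4 at day 28. Wee1, a kinase that delays mitosis, rose by 2.26 with CCl4 at day 84, and Gtf2h4, of the helicase complex of nucleotide excision, fell by 0.57 with DEN and by 0.70 with CCl4 at that day. With DEN at day 28, Fancc fell by 0.73, and Eme1, at background in all 3 controls, was well above it in 2 of 3 rats.

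The p53 targets were counted beside Xpc and Ddb2, from a list of 22 tested genes that holds neither. With DEN 16 rose and 2 fell at day 28 and 15 rose and 3 fell at day 84, and with CCl4 11 rose and 5 fell, then 9 rose and 8 fell. Of all genes, 7.82% rose and 7.19% fell with DEN at day 28, and 21.6% and 31.1% at day 84. With CCl4 the shares were 26.1% and 33.6%, then 28.0% and 36.3%. Ccng1 rose by 2.60 and 2.15 with DEN at day 28 and day 84, and Bax, which promotes cell death, by 1.27 at day 28. Sesn2 fell by 2.07 and 1.71 with CCl4. Abcb1b, a drug efflux pump, rose in all 4 comparisons, by 5.16 and 4.52 with DEN and by 4.18 and 3.49 with CCl4 at day 28 and day 84. Fas rose with CCl4 by 2.21 and 1.95, and Ephx1, an epoxide hydrolase, by 2.26 with DEN at day 84. Polk, a polymerase that is in both lists, fell by 0.43 with CCl4 at day 84.

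Markers of proliferation and of other liver cells also changed. Of 17 proliferation markers tested, 8 rose with DEN at day 28 and all 17 in each of the 3 other comparisons. Among all genes, 7.82% rose with DEN at day 28 and 21.6% to 28.0% in the others. Mki67 rose by 0.82 with DEN and by 3.32 with CCl4 at day 28, and by 2.06 and 3.07 at day 84. The log2 summed level of the 17 was 4.52 to 4.59 in day 28 controls, 4.82 to 5.63 with DEN and 7.41 to 7.85 with CCl4, and 3.83 to 4.29, 5.60 to 6.02 and 6.34 to 6.66 at day 84. The part of proliferation in the changes of repair genes was not tested.

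The marker counts stand beside these shares of all genes. At day 28, 7.82% rose and 7.19% fell with DEN, and 26.1% and 33.6% with CCl4. At day 84 the shares were 21.6% and 31.1% with DEN, and 28.0% and 36.3% with CCl4. Of 15 hepatocyte markers, 5 fell at day 28 with DEN and 14 did with CCl4, and the counts at day 84 were 14 and 13. Alb was lower by 1.08 with CCl4 at day 28. Stellate and myofibroblast markers rose with CCl4 in 9 of 12 genes at day 28 and 10 at day 84, and with DEN in 1 and 6 (1 fell with DEN at day 84). The log2 summed level of these 12 was 5.19 to 6.06 in day 28 controls and 7.16 to 8.19 with CCl4, and 4.99 to 5.20 and 7.36 to 7.97 at day 84. Cholangiocyte markers rose with CCl4 in 5 of 8 genes at day 28 and 7 at day 84, and with DEN in 6 at day 84, when 1 fell with each compound. Of 14 lymphocyte markers, 7 rose and 0 fell with DEN at day 28 and 4 rose and 1 fell at day 84, whereas with CCl4 7 rose and 2 fell, then 7 rose and 3 fell. Macrophage markers moved both ways: of 15, 3 rose and 1 fell with DEN at day 28 and 3 rose and 2 fell at day 84, and with CCl4 4 rose and 5 fell, then 7 rose and 3 fell. Of 6 endothelial markers, 1 rose with each compound and 2 fell with CCl4 at day 28, and at day 84 3 (DEN) and 2 (CCl4) fell and 0 rose by limma. In whole liver, fewer cells of a type and less RNA per cell cannot be told apart, and the part of cell makeup in the changes of repair genes was not tested.

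Slides held arrays of several groups. CCl4 replicate 3 of day 28 was on another slide than its controls, and CCl4 replicates 2 and 3 of day 84 were on a slide scanned separately. With slide as a block the CCl4 counts were 16 higher and 6 lower at day 28 and 6 higher and 14 lower at day 84. Of all 10914 genes, 6667 and 5891 were then called in either direction, against 6514 and 7013 in the main fit. Within the slide shared with controls the CCl4 counts at day 28 were 14 higher and 5 lower, with 6597 of all genes called. At day 84 that slide held 1 CCl4 rat, which is assumed to vary like the other groups, so no count is given. The block ended the day 84 calls of Apex1 (0.42), Chek2 (0.17) and Mutyh (0.35). On the shared slide alone the day 84 differences with CCl4 were 0.54 for Rad50 and 0.28 for Xrcc6. The day 28 calls of Ercc2 (-0.34) and Nbn (0.17) were lost there.

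Other ways of processing ended some of the 63 calls against controls. Quantile normalization ended 12: Chek2 with DEN and Rad23b with CCl4 at day 28, Alkbh2, Ercc1, Mpg and Parp2 with DEN at day 84, and Chek2, Ercc3, Nthl1, Rad23b, Rad50 and Tdg with CCl4 at day 84. Normexp ended 16, among them those of Chek2 with DEN and of Pms2 and Chek1 with CCl4 at day 28. With normexp at day 84, Alkbh2, Chek1, Ercc1, Fancd2, Mpg, Parp2 and Pms2 were not called with DEN, nor Chek2, Fancd2, Nthl1, Rad50, Tdg and Xrcc1 with CCl4. Averaging probes ended 10 calls, no filter on dim probes 9, fits on only the groups compared 15, and spike-in scaling ended or turned 26.

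**Figure D4:**
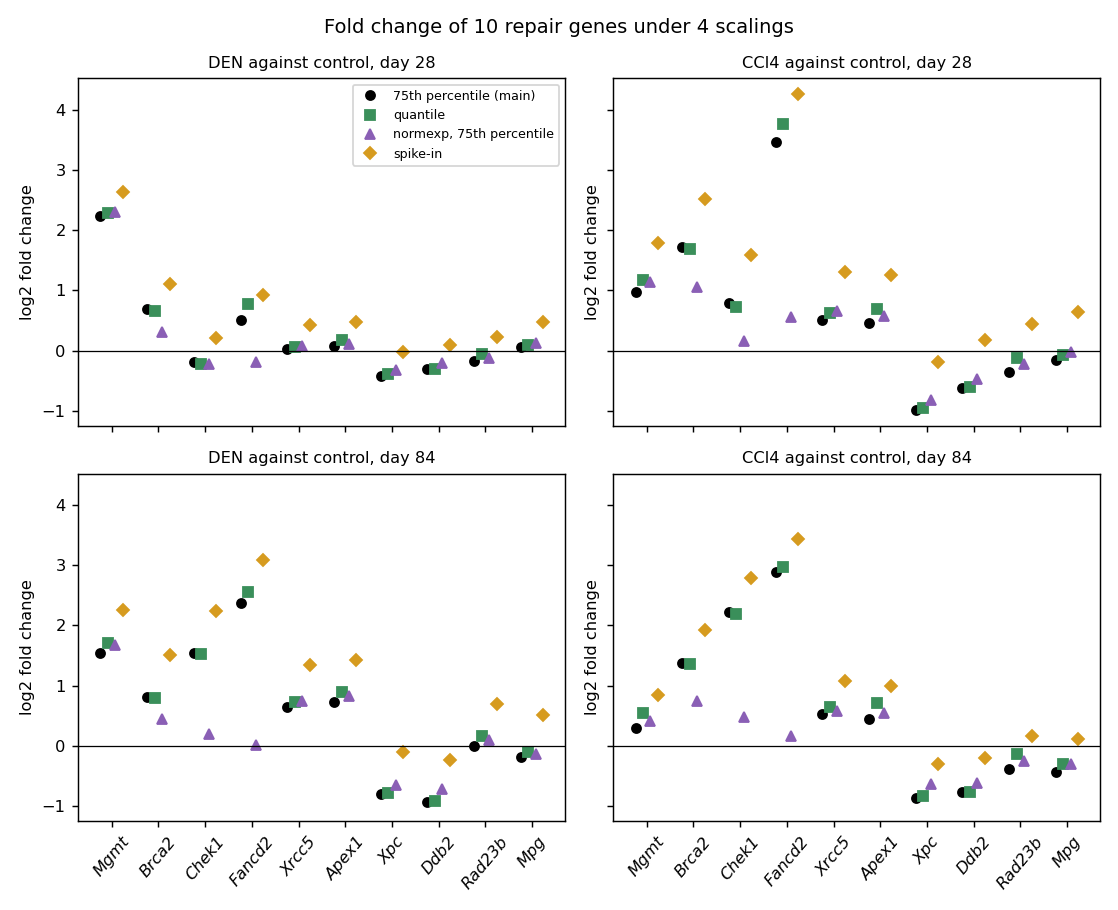
Log2 fold change of 10 repair genes in the 4 comparisons of treated with control rats, under 4 ways of scaling the arrays (black circle, the main one; the controls of Fancd2 were at background). Spike-in scaling shifts all genes up, so Xpc reads -0.99 on the main scale and -0.19 on the spike-in scale with CCl4 at day 28.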

How the data were processed

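The list of 43 genes, the other gene lists and the comparisons were chosen with earlier results of these data known. The named-gene rule was: all 43 by name and role, values per array for those called with a log2 fold change of at least 1 in size in a treated against control comparison and for Mgmt, Xpc and Ddb2, up to 3 called genes of smallest adjusted p for other repair genes and p53 targets, and Mki67 and Alb. A result this rule named is not reported here.

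The deposited scanner files hold intensity values per spot, made by the authors in Agilent Feature Extraction (version 10.7.1.1), as the submitters' processing notes give it. The value table deposited by the authors holds a ratio, each processed signal divided by a constant of its array, and is an alternative here. With each array's median difference taken off, the log2 agreed within 0.01 for 100% of probes (medians of 0.0852 to 0.0978 per column). That check cannot show that the constant is the 75th percentile. Of 61537 probes, 28206 matched 1 of 15645 genes by accession, and 18 with outlier flags were left out. From the deposited intensities, log2 processed signals minus each array's 75th percentile were computed. A probe was kept if some group had it well above background on all 3 arrays, and each gene was read by its highest-mean probe (10914 genes). A mean per group was fitted to 18 arrays with limma 3.58.1 in R 4.3.3 (12 residual degrees of freedom). The number of arrays limits the precision. The fit was tested on simulated data.

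Alternatives were normexp correction (offset 50, on median spot signals), no filter or a filter on all arrays, scaling to 8 spike-in probes, quantile normalization, mean over probes, replicate or slide blocks, only the groups compared, and leaving out each rat. Arrays of one slide were added after seeing the data.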

Additional observations from a re-analysis of the deposited data

Results flagged for a closer look

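The difference from controls changed between day 28 and day 84 in 12 cases, by a test of the difference itself (limma, adjusted p under 0.05 over all genes). For DEN it was larger at day 84 for Chek1 (1.73 on the log2 scale), Apex1 (0.65) and Xrcc5 (0.63), and it changed downward for Mgmt (-0.68), Ddb2 (-0.63) and Alkbh2 (-0.59). For CCl4 it changed upward for Chek1 (1.44) and Xpa (0.48) and downward for Chek2 (-0.70), Mgmt (-0.68) and Alkbh2 (-0.60). The controls of Chek1, Chek2 and Alkbh2 themselves differed between days, and day 28 and day 84 controls lay on different slides. Leaving out 1 rat at a time, the calls of Xrcc5, Ddb2, Alkbh2 and Chek1 with DEN and of Alkbh2 with CCl4 were kept in all 12 fits each, and 6 others were lost in 4 to 11 of them. The fit also gave 1.87 for Fancd2 with DEN, but 0 of 3 arrays were well above background in the controls of both days and in the DEN rats of day 28, so this is no measured size. With normexp its DEN differences were -0.19 at day 28 and 0.01 at day 84.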

How the results depend on the processing

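Counting fold changes against controls that were called before or after, spike-in scaling turned 40 upward, quantile normalization 2 upward and normexp 2 downward. Counting all 140, called or not, the sign (to 2 decimals) changed in 55, 10 and 24. Spike-in scaling moves all genes up together, and the 40 values follow from that shift. With CCl4 at day 28 they were Ddb2 0.18, Ercc2 0.44, Ercc3 0.74, Ercc8 0.77, Mpg 0.64, Neil1 0.10, Nthl1 0.71, Polb 0.64, Rad23b 0.44, Tdg 0.70, Xpa 0.29 and Xrcc1 0.61. With CCl4 at day 84 they were Alkbh2 0.14, Alkbh3 0.46, Ddb1 0.46, Ercc1 0.28, Ercc3 0.28, Ercc8 0.17, Mpg 0.12, Nthl1 0.32, Ogg1 0.51, Polb 0.52, Rad23b 0.16, Tdg 0.29, Xpa 0.52 and Xrcc1 0.21. With DEN at day 84 they were Alkbh2 0.41, Alkbh3 0.68, Atm 0.70, Chek2 0.70, Ercc1 0.50, Ercc2 0.35, Ercc3 0.62, Ercc8 0.50, Mpg 0.51, Nbn 0.69, Parp2 0.33, Rad23b 0.69, Tdg 0.67 and Xpa 0.61. Quantile normalization turned Ercc3 with CCl4 at day 28 (0.15) and Rad23b with DEN at day 84 (0.16). Normexp turned Rad50 with CCl4 at day 28 (-0.19) and with DEN at day 84 (-0.20). The cause of the changes with quantile normalization and normexp was not tested.

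Counts of called genes moved by over 1.5 times as follows. With spike-in scaling they were 16 for DEN and 30 for CCl4 at day 28, 29 for DEN at day 84, 5 for CCl4 against DEN at day 84, and 3, 2 and 2 for the DEN, CCl4 and control differences between days. In the same order, 3631, 8613, 7785, 2547, 852, 301 and 482 of all genes were called. The main fit called 1639, 6514, 5750, 3743, 1752, 658 and 1066. Averaging probes gave 3 for DEN at day 28 and 2 for the controls between days (1541 and 907 of all genes). The CCl4 difference between days gave 3 with normexp, and 2 with no filter, slide block or only the groups compared. For these 4 settings, in this order, 1162, 397, 402 and 369 of all genes were called, with more genes tested where there was no filter. The control difference between days gave 2 with no filter and with only the groups compared (748 and 776 of all genes). CCl4 at day 28 gave 10 with only the groups compared, where 4749 of all genes were called against 6514 in the main fit. CCl4 at day 84 stayed at 21 with that setting, and the cause of the drop was not tested.

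Without 1 rat at a time, counts ranged from 4 to 6 for DEN and 13 to 19 for CCl4 at day 28, and from 10 to 15 and 17 to 20 at day 84, where DEN without DEN replicate 2 gave 10. They ranged from 15 to 22 and 7 to 10 for CCl4 against DEN at day 28 and day 84, from 5 to 9 and 1 to 5 for the DEN and CCl4 differences between days, and from 2 to 3 for the controls. The CCl4 difference between days gave 1 without CCl4 replicate 1 of day 84. Counts of all genes moved as well. At day 28 they ranged from 700 to 1319 for DEN and from 5581 to 6597 for CCl4, against 1639 and 6514 in the main fit.

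Replicate numbers did not pair the rats. Of 18 pairs of one number and day, 3 had correlated deviations over 0.1 (range -0.13 to 0.13). With the replicate block the control difference between days gave 2 genes (929 of all genes called, 1066 in the main fit), and no other count moved by over 1.5 times. Dim probes limit Fancd2, Chek1, Brca1, Neil3 and Atm, whose signals lie near background, and Ercc6, with 2 of 3 DEN arrays at day 28 well above it.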
